A study of Mus musculus with 24 samples.

Results

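Interferon-stimulated genes (ISGs) were followed in bone marrow-derived macrophages (BMDMs) of STAT6-deficient (KO) and wild-type (WT) mice. The list named 44 genes, 24 of them antiviral effectors, 6 interferon-gamma-type GTPases and 14 genes of other roles. Every probe set that the platform annotation gave to one of these genes alone was taken, which gave 68 of the 45037 probe sets tested and covered 41 of the 44 genes. Measured were 22 of 24 antiviral effectors, 5 of 6 GTPases and all 14 other genes. Isg15, Ifi44 and Gbp5 had no probe set of their own and were not analysed here. The list was chosen with earlier results of these data known. Counts of called members beside the share of all probe sets are therefore descriptions and not independent tests. One probe set stood for each gene, picked by the form and number of its identifier without regard to its values, and the 27 further probe sets, which belonged to 18 of the genes, are described last.

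Type I interferons signal through JAK1 and TYK2 to a complex that includes STAT2 and IRF9 and binds the interferon-stimulated response element (ISRE) in promoters, switching on genes that block viral entry, replication and release. Interferon-gamma acts mainly at gamma-activated sites (GAS) and is the classical inducer of the guanylate-binding proteins and the immunity-related GTPases, which attack the vacuoles of intracellular pathogens. STAT6 carries the signal of IL-4, the cytokine of alternative macrophage activation, and PPARγ is a lipid-sensing nuclear receptor, for which rosiglitazone (RSG) is a synthetic agonist.

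All mice were C57Bl/6, 3 of them STAT6 KO and 3 WT. Marrow of each mouse gave 4 cultures, kept for 10 days in 20 ng/ml M-CSF, some of them given 20 ng/ml IL-4, and each in either 1 uM RSG or its vehicle, DMSO:ethanol. With 1 array per culture there were 24 arrays in 8 groups of 3: KO IL-4 RSG, KO IL-4 vehicle, KO control RSG, KO control vehicle and the same conditions in WT, where control means no IL-4. The study asked how IL-4 and STAT6 shape what PPARγ does in macrophages when a ligand is given. The KO was of the whole animal, so any cell of the marrow lacked STAT6, and no sorting of the cultures is described. The log2 values below set each array against the gene's own median across the series, so 0 is a typical array for that gene. Levels of different genes cannot be set against each other, and how far a signal lay over background is unknown. Differences are given on this log2 scale ± SE from one limma fit on all arrays, and calls required an adjusted p under 0.05 together with a change of 1.5-fold or more.

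The genotype labels were borne out by Stat6, whose 2 probe sets lay between -2.12 and -1.48 on the 12 KO arrays and between 0.71 and 1.15 on the 12 WT arrays. With IL-4 in KO cultures, without RSG, markers of other blood cells rose as well: 7 of 11 T and NK lymphocyte markers, 9 of 10 of mast cells and basophils and 11 of 11 of neutrophils and granule precursors, with 3 of 8 for dendritic cells. Of 9 plasmacytoid dendritic cell markers 3 rose and 1 fell, and one of those that rose was the ISG Bst2. Of 9 macrophage markers 1 rose and 2 fell. In this comparison 4.25% of all probe sets were called higher and 3271 of the 45037 were called lower. The mean of the 13 stromal fibroblast markers stood apart on the KO control RSG array of mouse 6, at 4.27, and on that of mouse 2 in the WT control vehicle group, at 2.28. In bulk samples, fewer cells of a type and less RNA per cell cannot be told apart.

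RefSeq promoters (GRCm38.p6, 250 bases before to 50 after the start) were listed for 34 of the 44 genes. The core of the ISRE, GAAANNGAAA on either strand, was found in 17 of them, against 1079 of all 27025 genes with a promoter (3.99%). The GAS letters TTCNNNGAA were found in 8 of the 34, against 2582 of all genes (9.55%). By class, GAS letters were in 5 of 18 antiviral, 2 of 5 GTPase and 1 of 11 other promoters. All 5 GTPase promoters held the ISRE core, Gbp5 among them, as did 9 of the 18 antiviral ones, including Ifit1, Ifit3, Rsad2 and Isg15. A match is a description of letters and not a bound site. The last 120 bases before the start are shown for the leading gene with a listed promoter of 4 role groups, because these groups carry the comparison of antiviral effectors with GTPases. They are in lower case, read 5′ to 3′ on the gene's strand, with the ISRE core or the GAS letters in capitals. The windows lie at chr19:34601969-34602088 (minus strand, the first of 2 listed promoters), chr5:120777660-120777779 (minus), chr6:57580872-57580991 (plus) and chr11:58199436-58199555 (plus), in the order shown.
Ifit1bl1: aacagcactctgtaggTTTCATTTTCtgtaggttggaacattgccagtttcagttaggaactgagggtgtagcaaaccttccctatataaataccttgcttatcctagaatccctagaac
Oas3: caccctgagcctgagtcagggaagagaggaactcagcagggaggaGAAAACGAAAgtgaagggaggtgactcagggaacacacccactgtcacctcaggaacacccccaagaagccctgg
Herc6: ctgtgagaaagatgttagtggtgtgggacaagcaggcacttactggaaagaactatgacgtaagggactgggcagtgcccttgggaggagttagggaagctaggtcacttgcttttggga
Igtp: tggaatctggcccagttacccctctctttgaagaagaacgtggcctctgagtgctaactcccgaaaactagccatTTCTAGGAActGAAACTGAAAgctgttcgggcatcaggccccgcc
The ISRE core began 104 bases before the start in Ifit1bl1 and 75 in Oas3. In Igtp the GAS letters began 45 bases before the start and the ISRE core 34. Herc6, of the ISG15 group, held neither set of letters in its window.

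IL-4 raised nearly the whole list in KO macrophage cultures. With vehicle, 40 of 41 measured ISGs were called higher and none lower in KO IL-4 than in KO control cultures, where 4.25% of all probe sets were called higher. The median of the 41 differences was 2.06, against -0.14 over all probe sets. The one gene without a call was Xaf1, which encodes a binding partner of the caspase inhibitor XIAP (1.16 ± 0.39, adjusted p = 0.053) and which was called without the 2 arrays high in stromal markers (adjusted p = 0.046). On all 41 genes each KO IL-4 vehicle array lay above each KO control vehicle array, as it did for 10.4% of all probe sets. The fit was repeated in 30 settings that left out 1 of the 6 mice or 1 of the 24 arrays, and 38 of the 40 calls were kept in all of them, the exceptions being Dhx58 and Slfn5.

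Among the IFIT genes, whose products bind foreign RNA and hinder its translation, Ifit1bl1 was at 4.66, 4.97 and 5.06 on the KO IL-4 vehicle arrays and at -0.44, -0.091 and -0.082 on the KO control vehicle arrays. The groups lay far apart, and the difference of 5.10 ± 0.36 (adjusted p = 6.0e-08) was the widest of the 4 IFIT genes. Ifit2 was at 3.83, 4.17 and 4.25 with IL-4 and at 0.055, 0.014 and 0.20 without (3.99 ± 0.31). Ifit1 rose by 3.81 ± 0.22 and Ifit3 by 4.46 ± 0.27.

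All 6 Mx and OAS genes rose. Mx1, a dynamin-like GTPase that is defective in C57BL/6 and many other laboratory strains, was at 3.86, 4.44 and 4.25 with IL-4 and at -0.15, 0.24 and -0.19 in control cultures (4.22 ± 0.30). Oasl1, a relative of the oligoadenylate synthetases, was at 3.55, 3.82 and 3.85 with IL-4 and at -0.75, -0.58 and -0.11 without (4.22 ± 0.26). Both genes had no overlap between groups. The enzymes Oas2 and Oas3, which make the oligoadenylate that activates RNase L, rose by 2.02 ± 0.28 and 3.21 ± 0.47, and the OAS-like gene Oasl2 by 4.36 ± 0.26.

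Usp18, the protease that removes ISG15 from its targets and dampens signalling at the type I interferon receptor, was at 2.77, 2.88 and 3.27 on KO IL-4 vehicle arrays and at -1.53, -1.87 and -0.75 on KO control vehicle arrays (4.36 ± 0.24, adjusted p = 4.3e-09). Herc6, the main ISG15 ligase of the mouse, was at 1.36, 1.27 and 1.47 with IL-4 and at -0.44, 0.026 and -0.44 without (1.65 ± 0.19). Both rose, Usp18 starting from control values well below its median over the arrays.

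The remaining antiviral effectors ranged from 0.99 to 4.52. Zbp1, a sensor of Z-form nucleic acid, rose by 4.52 ± 0.33 and Rsad2, the radical SAM enzyme viperin, by 3.83 ± 0.29. Rtp4 was at 2.99, 3.18 and 3.26 with IL-4 and at -0.63, -0.51 and 0.039 without (3.51 ± 0.27). The smallest call was that of Eif2ak2, the RNA-activated kinase PKR, at 0.99 ± 0.20. The RNA-editing enzyme gene Adar was at 0.65, 1.38 and 1.07 with IL-4 and at -0.56, -0.45 and -0.29 without (1.47 ± 0.17). Bst2, which tethers budding virions, and Ifitm3, which blocks viral entry, rose by 1.49 ± 0.16 and 1.98 ± 0.36. All 9 calls of this group had the same sign.

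All 5 measured GTPases rose. Iigp1 was at 4.53, 4.60 and 5.06 with IL-4 and at -0.11, -0.32 and 0.11 without (4.83 ± 0.87, adjusted p = 7.6e-04). Gbp2 was at 1.38, 1.61 and 1.94 with IL-4 and at -0.93, -1.24 and -1.04 without (2.71 ± 0.28). The groups were apart for both, with the wider gap for Iigp1. Gbp3 was at 1.19, 1.58 and 1.87 with IL-4 and at -0.60, -0.38 and -0.55 without (2.06 ± 0.25). Igtp was at 1.89, 2.60 and 2.79 with IL-4 and at -0.24, -0.25 and -0.31 without (2.69 ± 0.23). Irgm1, an immunity-related GTPase that regulates others of its family, was at 1.64, 1.90 and 2.12 with IL-4 and at -0.62, -0.38 and -0.31 without (2.32 ± 0.21).

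Of the other roles, the Schlafen genes Slfn1 and Slfn4 had the widest differences of the whole list. Slfn1 was at 6.96, 7.46 and 7.62 with IL-4 and at 1.67, -2.39 and -0.89 without (7.89 ± 0.74), and its control arrays spread widely. Slfn4 rose by 6.40 ± 0.93. Slfn5 was at 0.81, 1.37 and 1.38 with IL-4 and at 0.19, 0.27 and -0.14 without (1.08 ± 0.28, adjusted p = 0.013). The RNA sensor gene Ifih1, which encodes MDA5, was at 1.44, 1.43 and 1.64 with IL-4 and at -0.0021, -0.029 and 0.23 without (1.44 ± 0.13), and Dhx58, which encodes its relative LGP2, rose by 1.96 ± 0.54. Parp9 and its partner Dtx3l, an E3 ligase, rose by 1.57 ± 0.12 and 1.33 ± 0.18, and Parp14, a mono-ADP-ribosyltransferase, by 1.94 ± 0.20. Sp100 and Pml, which build nuclear bodies, rose by 1.97 ± 0.13 and 1.14 ± 0.14, and the interacting pair Nmi and Ifi35 by 1.52 ± 0.14 and 1.89 ± 0.15. Lgals9, a galectin, and Lgals3bp, a galectin-binding glycoprotein, rose by 1.27 ± 0.19 and 1.12 ± 0.14.

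The markers of other blood cells were high on the same arrays. The mean of 11 T and NK lymphocyte markers ran from 2.40 to 2.78 on KO IL-4 vehicle arrays, against -1.51 to -1.26 on KO control vehicle arrays. For 10 mast cell and basophil markers the ranges were 4.81 to 5.26 with IL-4 and -1.38 to -0.43 without, and for 11 neutrophil and granule precursor markers 3.24 to 3.62 and -0.34 to 0.33. For 7 B lymphocyte markers they were 0.46 to 1.09 with IL-4 and -0.44 to 0.33 without. The plasmacytoid dendritic cell mean ran from 0.15 to 0.49 with IL-4 and from -0.53 to 0.11 without, with the defining marker Siglech not called (0.65 ± 0.52, adjusted p = 0.50). The macrophage mean ran from -0.078 to 0.076 with IL-4 and from -0.021 to 0.073 without. Ratios to a median have no 0, so whether a marker was absent cannot be read from them. The part of these cells in the ISG differences was not tested.

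**Figure D1:**
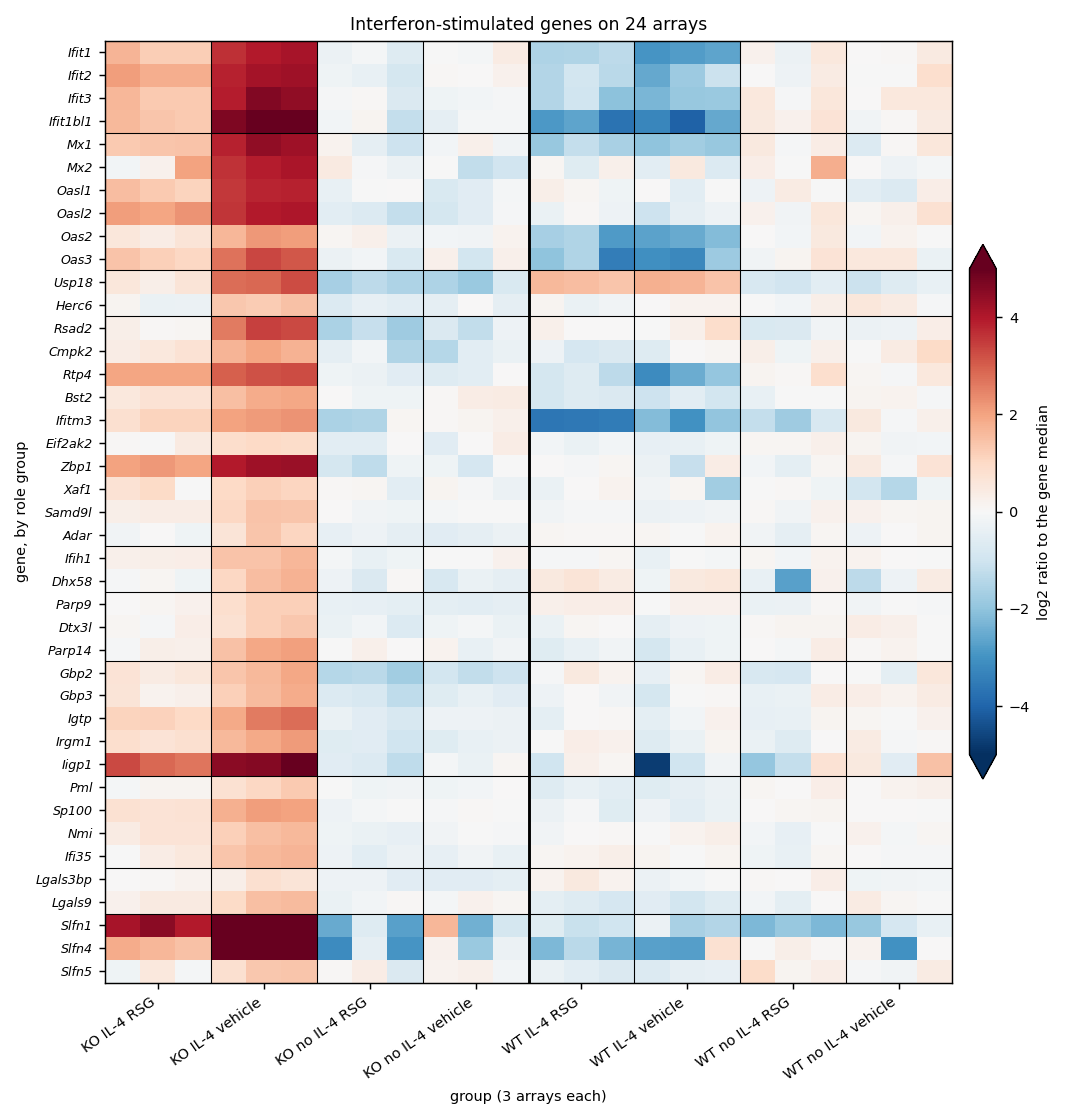
Log2 ratio (colour, to the gene's median over the arrays) of the 41 measured ISGs, in rows by role, on the 24 arrays, in columns by group with 3 arrays each; the scale ends at -5 and 5. The KO IL-4 vehicle arrays are high for all genes, the KO IL-4 RSG arrays lie lower on all 41, and the WT IL-4 arrays are low for the IFIT genes, Oas2, Oas3 and Ifitm3 and high for Usp18.

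In WT macrophage cultures IL-4 lowered a subset of the antiviral effectors and raised Usp18. With vehicle, 13 of 41 ISGs were called lower and 1 higher in WT IL-4 than in WT control cultures, where 5.94% of all probe sets were called lower and 7.01% higher. The median of the 41 was -0.50, against 0.09 over all probe sets. The 13 were all 4 IFIT genes, 4 of 6 Mx and OAS genes, 3 of 10 other antiviral effectors, Pml and Lgals9. No GTPase, RNA sensor, PARP or Schlafen gene was called. Counting both directions, limma on the 6 compared arrays by themselves called 9 genes, and the t-test named in the study's methods called 7 after Benjamini-Hochberg adjustment.

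Ifit1bl1 was at -3.26, -4.06 and -2.54 on the WT IL-4 vehicle arrays and at -0.18, 0.077 and 0.45 on the WT control vehicle arrays (-3.40 ± 0.36, adjusted p = 2.3e-06). Ifit2 was at -2.55, -1.80 and -1.06 with IL-4 and at -0.014, -0.031 and 0.85 without (-2.07 ± 0.31). In both the groups were apart. Ifit1 fell by 2.99 ± 0.22 and Ifit3 by 2.38 ± 0.27.

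Mx1 was at -2.01, -1.72 and -1.88 with IL-4 and at -0.68, 0.047 and 0.57 without (-1.85 ± 0.30). Oas3 fell by 2.95 ± 0.47, Oas2 by 2.46 ± 0.28 and Oasl2 by 0.94 ± 0.26, the last not called without mouse 1, 2 or 3 (highest adjusted p = 0.11, without mouse 1). Oasl1 was at 0.011, -0.53 and -0.022 with IL-4 and at -0.54, -0.68 and 0.34 without (0.11 ± 0.26, adjusted p = 0.85), and its groups overlapped.

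Rtp4 was at -3.13, -2.48 and -1.92 with IL-4 and at 0.10, -0.040 and 0.51 without (-2.70 ± 0.27). Ifitm3 fell by 2.60 ± 0.36 and Bst2 by 0.89 ± 0.16. Lgals9 was at -0.56, -0.93 and -0.66 with IL-4 and at 0.39, 0.080 and -0.021 without (-0.87 ± 0.19). Pml fell by 0.59 ± 0.14, not called without mouse 1, 2 or 3 (highest adjusted p = 0.079, without mouse 2).

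Usp18 ran against the other called genes. It was at 1.77, 1.72 and 1.43 on the WT IL-4 vehicle arrays and at -1.09, -0.64 and -0.37 on the WT control vehicle arrays, a rise of 2.33 ± 0.24 (adjusted p = 1.8e-06). Its partner in the ISG15 group, Herc6, was at 0.0072, 0.18 and 0.18 with IL-4 and at 0.58, 0.40 and -0.059 without (-0.18 ± 0.19, adjusted p = 0.61). Other genes with the smallest or widest genotype gap of their groups did not pass the test in WT. Adar was at 0.11, -0.018 and 0.16 with IL-4 and at -0.26, 0.022 and 0.13 without (0.12 ± 0.17, adjusted p = 0.73). Ifih1 was at -0.37, -0.033 and -0.078 with IL-4 and at 0.19, 0.00070 and -0.00070 without (-0.23 ± 0.13, adjusted p = 0.27). Parp14 was at -0.87, -0.36 and -0.20 with IL-4 and at 0.067, 0.18 and -0.0082 without (-0.56 ± 0.20, adjusted p = 0.071). Ifih1 and Parp14 were a little lower with IL-4 without overlap, and the Adar groups overlapped. Sp100 was at -0.25, -0.53 and -0.33 with IL-4 and at 0.0095, 0.027 and -0.029 without (-0.37 ± 0.13, adjusted p = 0.057). Slfn1 was at -0.29, -1.63 and -1.48 with IL-4 and at -1.90, -0.84 and -0.38 without (-0.093 ± 0.74, adjusted p = 0.96).

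The 5 GTPases had a median of -0.42 in this comparison, with no call. Gbp2 was at -0.43, 0.079 and 0.37 with IL-4 and at -0.016, -0.50 and 0.58 without (-0.014 ± 0.28, adjusted p = 0.98). Gbp3 was at -0.88, -0.030 and 0.057 with IL-4 and at 0.34, 0.16 and 0.41 without (-0.59 ± 0.25, adjusted p = 0.14). Mouse 1 gave the lowest WT IL-4 vehicle array for both. Igtp was at -0.50, -0.14 and 0.22 with IL-4 and at 0.079, -0.035 and 0.21 without (-0.22 ± 0.23, adjusted p = 0.60). Irgm1 was at -0.65, -0.33 and 0.12 with IL-4 and at 0.42, -0.063 and 0.049 without (-0.42 ± 0.21, adjusted p = 0.21). Iigp1 was at -4.74, -0.996 and -0.16 with IL-4 and at 0.49, -0.58 and 1.45 without (-2.42 ± 0.87, adjusted p = 0.067), where mouse 1 stood far below the others. Its further probe set was at -1.64, -0.60 and 0.27 with IL-4 and at 0.54, -0.49 and 1.30 without. With the mouse as a fixed block in the fit, the probe set that stood for Iigp1 was called (adjusted p = 0.022).

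Markers of neutrophils and granule precursors moved with this comparison too: 8 of 11 fell, where 5.94% of all probe sets were called lower. Their mean ran from -3.95 to -3.19 on WT IL-4 vehicle arrays, against -0.54 to 0.67 on WT control vehicle arrays. Their part in the ISG differences was not tested. Without the 2 arrays high in stromal markers 41 ISGs were called in KO and 14 in WT.

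**Figure D2:**
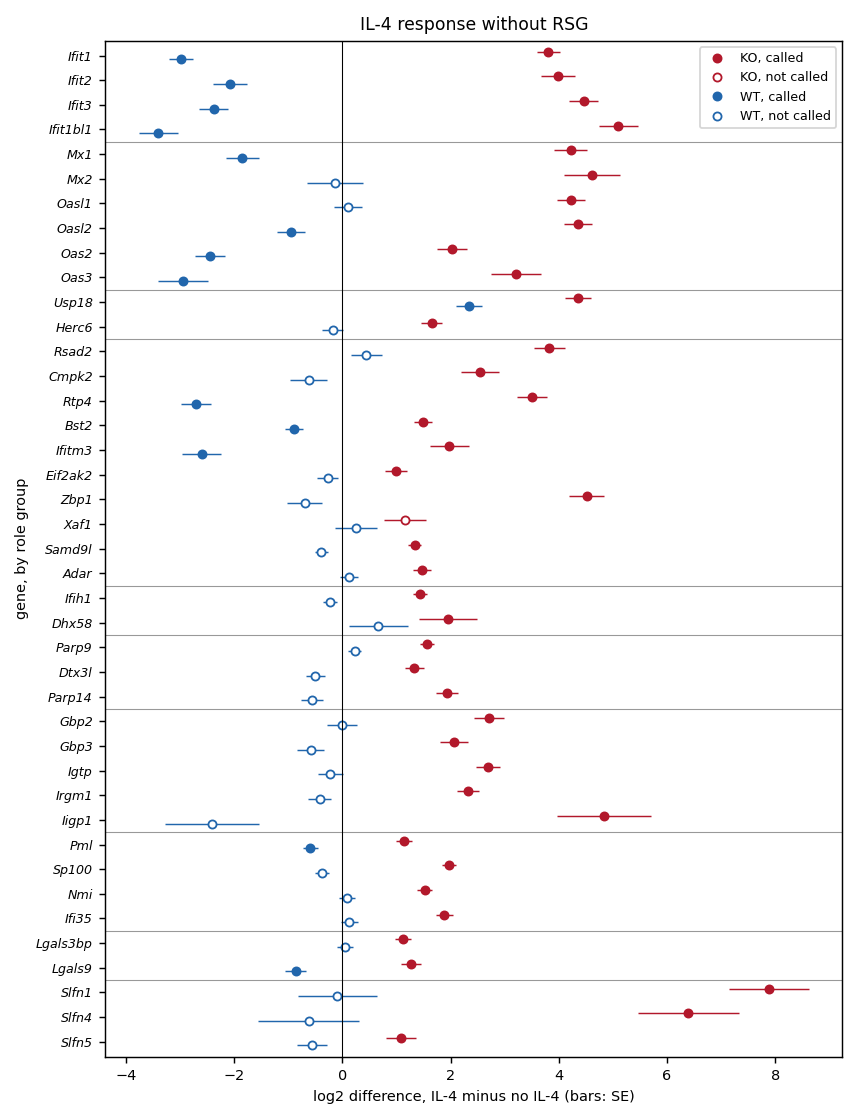
Log2 difference, IL-4 vehicle minus control vehicle, with its SE for each of the 41 ISGs in KO (red) and WT (blue); filled points were called. All 41 KO points lie above 0, while in WT 13 of the 14 called points lie below 0 and Usp18 lies above.

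The difference between these responses was tested directly. The IL-4 response was higher in KO than in WT for 39 of 41 ISGs, where 4.73% of all probe sets were called higher, with a median difference of 2.73. Xaf1 (0.91 ± 0.55, adjusted p = 0.32) and Dhx58 (1.29 ± 0.76, adjusted p = 0.31) did not pass. The gap was 8.503 ± 0.51 for Ifit1bl1, 7.25 ± 1.23 for Iigp1 and 2.02 ± 0.34 for Usp18, which rose in both genotypes.

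Side by side with IL-4 and vehicle, 40 of 41 ISGs were higher in KO than in WT and none lower, where 6.94% of all probe sets were called higher. The median was 2.29, against -0.25 over all probe sets. The widest gaps were those of Slfn1 (8.48 ± 0.74) and Ifit1bl1 (8.19 ± 0.36) and the narrowest call that of Lgals3bp (0.72 ± 0.14). The further Slfn1 probe set went the other way, with a mean of -1.43 in KO and -0.72 in WT, and its groups overlapped. Lgals3bp was at 0.29, 0.80 and 0.66 on KO IL-4 vehicle arrays and at -0.28, -0.12 and -0.0058 on WT IL-4 vehicle arrays, still without overlap. Nmi was at 1.17, 1.51 and 1.63 in KO and at -0.013, 0.19 and 0.31 in WT (1.28 ± 0.14). Parp9 was at 0.83, 1.21 and 1.19 in KO and at -0.034, 0.23 and 0.22 in WT (0.94 ± 0.12). All 3 genes kept the genotypes apart, by less than the IFIT genes did. Dhx58 was at 1.05, 1.53 and 1.76 in KO and at -0.22, 0.49 and 0.56 in WT (1.17 ± 0.54, adjusted p = 0.12), without overlap but also without a call. All 40 calls were kept when any one mouse or array was left out. This comparison and the IL-4 response in KO share the KO IL-4 vehicle arrays. On WT IL-4 vehicle arrays the T and NK lymphocyte mean ran from -0.014 to 0.52. That of mast cells and basophils ran from -0.47 to -0.15. The neutrophil and granule precursor mean ran from -3.95 to -3.19 and the B lymphocyte mean from -0.74 to -0.34. All lay below the KO IL-4 vehicle ranges given above, and their part in the genotype gap was not tested.

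Without IL-4 no ISG was called between genotypes. With limma, 0 of 41 genes were called in control vehicle cultures, where 0.109% of all probe sets were called in either direction, and 13 of 41 had an unadjusted p under 0.05, as did 9.2% of all probe sets. On 13 of 41 genes each KO control vehicle array lay below each WT control vehicle array, as it did for 10.2% of all probe sets. In control RSG cultures, 0 of 41 were called, with 0.0999% of all probe sets, and 17 of 41 had an unadjusted p under 0.05, as did 9.54% of all probe sets. The methods' t-test also called 0 in both after adjustment. The medians were -0.28 and -0.48, and the genes ran from -1.21 to 0.79 with vehicle and from -2.28 to 0.65 with RSG.

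Antiviral effectors and GTPases were set against each other array by array, as the mean of the 22 effectors minus the mean of the 5 GTPases. On KO IL-4 vehicle arrays the effectors averaged 2.61, 2.97 and 2.97 for mice 4, 5 and 6 and the GTPases 2.13, 2.46 and 2.76. On KO control vehicle arrays the effectors averaged -0.37, -0.39 and -0.078 and the GTPases -0.50, -0.51 and -0.42. The effectors minus the GTPases gave 0.49, 0.51 and 0.21 with IL-4, against 0.13, 0.13 and 0.34 in control cultures, and these differences overlapped.

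In WT the classes parted on some arrays. Effectors averaged -1.21, -1.09 and -0.86 on WT IL-4 vehicle arrays and -0.061, -0.039 and 0.26 on WT control vehicle arrays, without overlap. GTPases averaged -1.44, -0.28 and 0.12 with IL-4 and 0.26, -0.20 and 0.54 without. The effectors minus the GTPases gave 0.23, -0.81 and -0.98 for mice 1, 2 and 3 with IL-4, against -0.32, 0.17 and -0.28 in control cultures. In mouse 1 the GTPase mean with IL-4 was low, and its Iigp1 value, given above, was by far the lowest of the 5. On the further Iigp1 probe set, which does not enter the mean, that array was at -1.64. Of the antiviral effectors 11 of 22 were called lower and 1 higher in WT, and of the GTPases 0 of 5. A ratio scale does not allow the classes' levels to be compared, and the difference between classes has no test here.

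**Figure D3:**
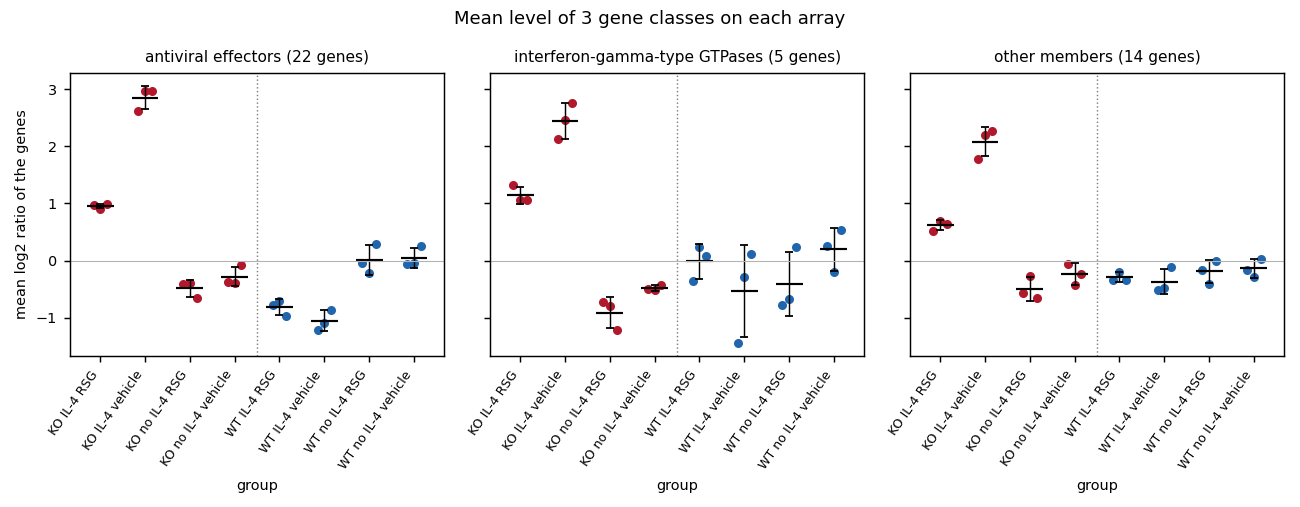
Mean log2 ratio of the 22 antiviral effectors, the 5 GTPases and the 14 other members on each array (points; KO red, WT blue), with the group mean and SD over 3 arrays. KO IL-4 vehicle arrays stand highest in every class, KO IL-4 RSG arrays lie between them and the control arrays, and WT IL-4 arrays fall below the WT controls for the effectors.

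RSG lowered the ISGs in IL-4-treated KO macrophage cultures. Of 41 ISGs 28 were called lower and none higher in KO IL-4 RSG than in KO IL-4 vehicle cultures, where only 0.391% of all probe sets were called lower. The median was -1.28, against 0.03 over all probe sets. On all 41 genes each KO IL-4 RSG array lay below each KO IL-4 vehicle array, as it did for 6.78% of all probe sets. This response uses the KO IL-4 vehicle arrays that also enter the IL-4 response, so the IL-4 and RSG responses in KO are not independent.

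The calls leaned on the spread shared by all groups. A limma fit on the 6 compared arrays alone called 0 of 41 ISGs and 0 of 45037 probe sets, and the methods' t-test called 0 after Benjamini-Hochberg adjustment. At its unadjusted threshold the methods' t-test passed 39 of 41 ISGs, where 2.28% of all probe sets passed as lower. Without mouse 5 the count was 13 and without mouse 6 it was 16, and without any other mouse or any single array it lay between 22 and 32. Kept in every such setting were 13 calls, those of Ifit1, Ifit3, Ifit1bl1, Mx1, Oasl1, Usp18, Herc6, Rsad2, Samd9l, Ifih1, Parp14, Sp100 and Ifi35.

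All 4 IFIT genes fell. Ifit1bl1 was at 1.61, 1.37 and 1.30 with RSG and at 4.66, 4.97 and 5.06 with vehicle (-3.47 ± 0.36, adjusted p = 5.7e-05). Ifit1 was at 1.71, 1.24 and 1.23 with RSG and at 3.64, 3.95 and 4.11 with vehicle (-2.50 ± 0.22). Ifit3 was at 1.65, 1.31 and 1.32 with RSG and at 3.94, 4.61 and 4.43 with vehicle (-2.90 ± 0.27). The RSG arrays were close to each other and stayed above the KO control arrays. Ifit2 was at 2.08, 1.80 and 1.81 with RSG and at 3.83, 4.17 and 4.25 with vehicle (-2.18 ± 0.31), not called without mouse 5 or 6 (highest adjusted p = 0.094).

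Of the Mx and OAS families 5 of 6 fell. Mx1 was at 1.30, 1.39 and 1.43 with RSG and at 3.86, 4.44 and 4.25 with vehicle (-2.81 ± 0.30). Mx2, a second dynamin-like GTPase, was at -0.12, 0.21 and 2.00 with RSG and at 3.60, 3.94 and 4.08 with vehicle (-3.18 ± 0.52), with mouse 6 well above the others under RSG. Mx2 was not called without mouse 4 or 5. Oasl1 was at 1.56, 1.30 and 1.10 with RSG and at 3.55, 3.82 and 3.85 with vehicle (-2.42 ± 0.26). Oasl2 was at 2.08, 1.97 and 2.23 with RSG and at 3.59, 3.97 and 4.04 with vehicle (-1.77 ± 0.26), not called without mouse 5. Oas2 was at 0.55, 0.37 and 0.66 with RSG and at 1.67, 2.18 and 2.10 with vehicle (-1.46 ± 0.28, adjusted p = 0.017). This call was lost in 9 of 30 leave-out settings and with the mouse as a block (adjusted p = 0.063). Oas3 did not pass (-1.85 ± 0.47, adjusted p = 0.11).

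Both genes of the ISG15 group fell. Usp18 was at 0.57, 0.30 and 0.63 with RSG and at 2.77, 2.88 and 3.27 with vehicle (-2.48 ± 0.24, adjusted p = 3.4e-05). Herc6 was at 0.15, -0.35 and -0.27 with RSG and at 1.36, 1.27 and 1.47 with vehicle (-1.52 ± 0.19). Under RSG Herc6 was near its control values on this probe set, while Usp18 was still well above them. On a further Herc6 probe set the RSG arrays, at 0.47, 0.24 and 0.19, lay above the KO control vehicle arrays, at -0.29, 0.059 and -0.085. Another gave 0.28, 0.87 and 0.51 against -0.15, -0.30 and 0.0039, and the last overlapped.

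Of the 10 other antiviral effectors 5 fell. Rsad2 was at 0.29, 0.077 and 0.10 with RSG and at 2.58, 3.40 and 3.31 with vehicle (-2.94 ± 0.29, adjusted p = 3.4e-05). Zbp1 was at 2.02, 2.17 and 1.98 with RSG and at 3.95, 4.24 and 4.32 with vehicle (-2.11 ± 0.33). Adar was at -0.17, 0.018 and -0.21 with RSG and at 0.65, 1.38 and 1.07 with vehicle (-1.15 ± 0.17). No arrays overlapped in these genes. Bst2 was at 0.54, 0.72 and 0.72 with RSG and at 1.51, 1.86 and 1.93 with vehicle (-1.10 ± 0.16). Samd9l, a regulator of translation with antiviral activity, was at 0.31, 0.37 and 0.39 with RSG and at 1.05, 1.44 and 1.41 with vehicle (-0.94 ± 0.12). Zbp1 was not called without mouse 4, 5 or 6, and Adar and Bst2 not without mouse 5 or 6. Rtp4 (-1.18 ± 0.27, adjusted p = 0.071), Ifitm3 (-1.11 ± 0.36, adjusted p = 0.28), Eif2ak2 (-0.76 ± 0.20, adjusted p = 0.13), Cmpk2 (-1.25 ± 0.34, adjusted p = 0.16) and Xaf1 (-0.54 ± 0.39, adjusted p = 0.79) did not pass.

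Of the 5 GTPases 3 were called lower, with a median of -1.20 over the 5, against -1.81 over the 22 antiviral effectors and -1.16 over the 14 other genes. Igtp was at 1.12, 1.14 and 0.998 with RSG and at 1.89, 2.60 and 2.79 with vehicle (-1.34 ± 0.23, adjusted p = 0.0064). Irgm1 was at 0.84, 0.68 and 0.82 with RSG and at 1.64, 1.90 and 2.12 with vehicle (-1.11 ± 0.21). Gbp3 was at 0.65, 0.17 and 0.24 with RSG and at 1.19, 1.58 and 1.87 with vehicle (-1.20 ± 0.25, adjusted p = 0.038). None of these calls held throughout: Gbp3 was lost in 17 of 30 leave-out settings and with the mouse as a block (adjusted p = 0.056), Irgm1 in 7 and Igtp in 3. Gbp2 was at 0.67, 0.42 and 0.56 with RSG and at 1.38, 1.61 and 1.94 with vehicle (-1.09 ± 0.28, adjusted p = 0.11). Iigp1 was at 3.32, 2.88 and 2.67 with RSG and at 4.53, 4.60 and 5.06 with vehicle (-1.77 ± 0.87, adjusted p = 0.61). It was without overlap, and its SE takes in the spread on all arrays, such as WT IL-4 vehicle with an SD of 2.44. The further Iigp1 probe set was at 3.37, 2.86 and 2.85 with RSG and at 4.34, 4.68 and 5.07 with vehicle. The effectors minus the GTPases gave -0.34, -0.15 and -0.07 on KO IL-4 RSG arrays, against 0.49, 0.51 and 0.21 on KO IL-4 vehicle arrays, so on each mouse the effectors fell by more than the GTPases.

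Of the other roles, Ifih1 was at 0.27, 0.28 and 0.35 with RSG and at 1.44, 1.43 and 1.64 with vehicle (-1.20 ± 0.13). Dhx58 was at -0.048, 0.10 and -0.23 with RSG and at 1.05, 1.53 and 1.76 with vehicle (-1.51 ± 0.54, adjusted p = 0.36). Parp14 was at -0.061, 0.30 and 0.24 with RSG and at 1.46, 1.95 and 2.03 with vehicle (-1.65 ± 0.20). Ifih1 and Parp14 passed and Dhx58 did not, and none of the 3 overlapped between groups. Parp9 was at 0.030, 0.10 and 0.22 with RSG and at 0.83, 1.21 and 1.19 with vehicle (-0.96 ± 0.12). Dtx3l was at 0.079, -0.067 and 0.33 with RSG and at 0.77, 1.19 and 1.34 with vehicle (-0.98 ± 0.18). Parp9 was not called without mouse 5, and Dtx3l was lost in 5 of 30 leave-out settings.

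All 4 genes of the nuclear body and NMI group fell. Sp100 was at 0.77, 0.68 and 0.72 with RSG and at 1.79, 2.08 and 2.02 with vehicle (-1.25 ± 0.13). Pml was at -0.11, 0.15 and 0.13 with RSG and at 0.74, 1.04 and 1.30 with vehicle (-0.97 ± 0.14). Both were without overlap, Sp100 with the tighter groups. Ifi35 was at -0.018, 0.37 and 0.53 with RSG and at 1.37, 1.63 and 1.71 with vehicle (-1.28 ± 0.15). Nmi was at 0.41, 0.67 and 0.70 with RSG and at 1.17, 1.51 and 1.63 with vehicle (-0.84 ± 0.14). Pml and Nmi were not called without mouse 5 or 6. Lgals9 was at 0.21, 0.46 and 0.45 with RSG and at 0.94, 1.504 and 1.57 with vehicle (-0.97 ± 0.19, adjusted p = 0.019), lost in 8 of 30 leave-out settings. Lgals3bp did not pass (-0.50 ± 0.14, adjusted p = 0.17).

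Of the Schlafen genes, Slfn4 had the widest difference of the whole list, and none of the 3 was called. Slfn4 was at 1.87, 1.65 and 1.46 with RSG and at 5.38, 6.05 and 5.86 with vehicle (-4.10 ± 0.93, adjusted p = 0.063). Slfn1 was at 4.11, 4.502 and 3.98 with RSG and at 6.96, 7.46 and 7.62 with vehicle (-3.15 ± 0.74, adjusted p = 0.071). Both were tight within these groups, while their SEs take in the spread on all arrays, such as KO control RSG, where Slfn4 was at -3.13, -0.46 and -2.95. Without the 2 arrays high in stromal markers Slfn4 was called (adjusted p = 0.032). Slfn5 was at -0.21, 0.54 and -0.11 with RSG and at 0.81, 1.37 and 1.38 with vehicle (-1.11 ± 0.28, adjusted p = 0.11), and was called without the KO control RSG array of mouse 6 (adjusted p = 0.0498).

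Few markers of other cells were called between these groups, where 56 of all 45037 probe sets were called higher and 176 lower. None of the T and NK lymphocyte, B lymphocyte, mast cell, neutrophil, stromal or dendritic cell markers was called, Bst2 was the one plasmacytoid dendritic cell marker called lower, and of 9 macrophage markers the LPS co-receptor gene Cd14 was called lower (-0.81 ± 0.16). The T and NK lymphocyte mean ran from 2.17 to 2.43 with RSG and from 2.40 to 2.78 with vehicle. The mast cell and basophil mean ran from 5.40 to 5.71 with RSG and from 4.81 to 5.26 with vehicle. The neutrophil and granule precursor mean ran from 3.32 to 3.62 with RSG and from 3.24 to 3.62 with vehicle. The macrophage mean ran from -0.25 to -0.053 with RSG and from -0.078 to 0.076 with vehicle. The mast cell means were higher with RSG without overlap, and the other 3 lists overlapped.

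IL-4 also raised ISGs in KO macrophage cultures kept in RSG. With RSG in both arms, 25 of 41 ISGs were called higher and none lower in KO IL-4 RSG than in KO control RSG cultures, where 3.19% of all probe sets were called higher, with a median of 1.23. The 25 were 15 of 22 antiviral effectors, all 5 GTPases and 5 of 14 others. Iigp1 rose by 3.79 ± 0.87, Gbp2 by 2.05 ± 0.28 and Slfn1 by 6.15 ± 0.74. No PARP gene, RNA sensor or galectin gene passed. Ifih1 had a difference of 0.53 ± 0.13 and Herc6 of 0.39 ± 0.19, adjusted p = 0.24. Ifih1 passed on its adjusted p and stayed under 1.5-fold. For Herc6 the mean of all its probe sets was called in limma (1.02, adjusted p = 0.0060). Fitting the 6 compared arrays by themselves called 14, and the methods' t-test 9. Oas3 (1.61 ± 0.47) was not called with the mouse as a block (adjusted p = 0.081) or without the KO control RSG array of mouse 6 (adjusted p = 0.12), and Cmpk2 and Slfn4 also lost their calls without that array (adjusted p = 0.15 and 0.055), while Eif2ak2 was called without it (adjusted p = 0.046). Here too 7 of 11 T and NK lymphocyte, 10 of 10 mast cell and basophil and 11 of 11 neutrophil and granule precursor markers rose. Of 13 stromal markers 4 fell, where 1640 of all 45037 probe sets were called lower. The KO control RSG array of mouse 6 was high in stromal markers. Their part in the ISG differences was not tested.

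In WT under RSG most calls for IL-4 were again lower: 12 of 41 ISGs were called lower and 1, Usp18 (2.28 ± 0.24), higher, where 5.59% of all probe sets were called lower and 7.87% higher, and the median was -0.19. Ifit1bl1 fell by 3.53 ± 0.36 and Ifitm3 by 2.31 ± 0.36. The methods' t-test called 8. Of the markers of other cells, 6 of 11 of neutrophils and granule precursors were called lower and 4 of 11 of T and NK lymphocytes higher in this comparison, and their part in it was not tested.

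The IL-4 response under RSG was higher in KO than in WT for 25 ISGs, where 3.69% of all probe sets were called higher. Without the KO control RSG array of mouse 6, Samd9l, Gbp2, Gbp3 and Irgm1 lost this call (adjusted p = 0.060, 0.087, 0.067 and 0.086), and Eif2ak2 was called (adjusted p = 0.022).

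With IL-4 and RSG together, 22 of 41 ISGs were higher in KO than in WT, where 5.79% of all probe sets were called higher, and 1 was lower, where 14.2% were called lower. The gene called lower was Usp18, at 0.57, 0.30 and 0.63 on KO IL-4 RSG arrays and at 1.61, 1.56 and 1.38 on WT IL-4 RSG arrays (-1.02 ± 0.24, adjusted p = 0.0040). With vehicle its order was the other way round (1.34 ± 0.24). Ifit1bl1 was at 1.61, 1.37 and 1.30 in KO and at -2.87, -2.65 and -3.68 in WT (4.49 ± 0.36), still far apart. Herc6 was at 0.15, -0.35 and -0.27 in KO and at 0.15, -0.33 and -0.18 in WT (-0.039 ± 0.19, adjusted p = 0.92). Rsad2 was at 0.29, 0.077 and 0.10 in KO and at 0.26, 0.027 and 0.027 in WT (0.049 ± 0.29, adjusted p = 0.94). For these 2 genes the genotypes overlapped on the probe set that stood for the gene. Both further Rsad2 probe sets kept KO above WT, at 0.83, 0.64 and 0.65 against -0.081, -0.11 and 0.077, and at 1.06, 0.51 and 0.74 against -0.0028, -0.25 and 0.0028. A further Herc6 probe set did too, at 0.47, 0.24 and 0.19 in KO and at -0.21, -0.31 and -0.089 in WT. The remaining Herc6 probe sets overlapped. Irgm1, called at 0.59 ± 0.21, was lost in 20 of 30 leave-out settings. Markers of other cells stood apart in the same way. The mean of the mast cell and basophil markers ran from 5.40 to 5.71 on KO IL-4 RSG arrays and from -0.55 to 1.09 on WT IL-4 RSG arrays, with 10 of 10 called higher. That of the neutrophil and granule precursor markers ran from 3.32 to 3.62 in KO and from -3.85 to -2.97 in WT, with 11 of 11 called higher. That of the T and NK lymphocyte markers ran from 2.17 to 2.43 in KO and from 0.47 to 0.83 in WT, with 7 of 11 called higher and 1 lower. Their part in the ISG differences between genotypes was not tested.

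**Figure D4:**
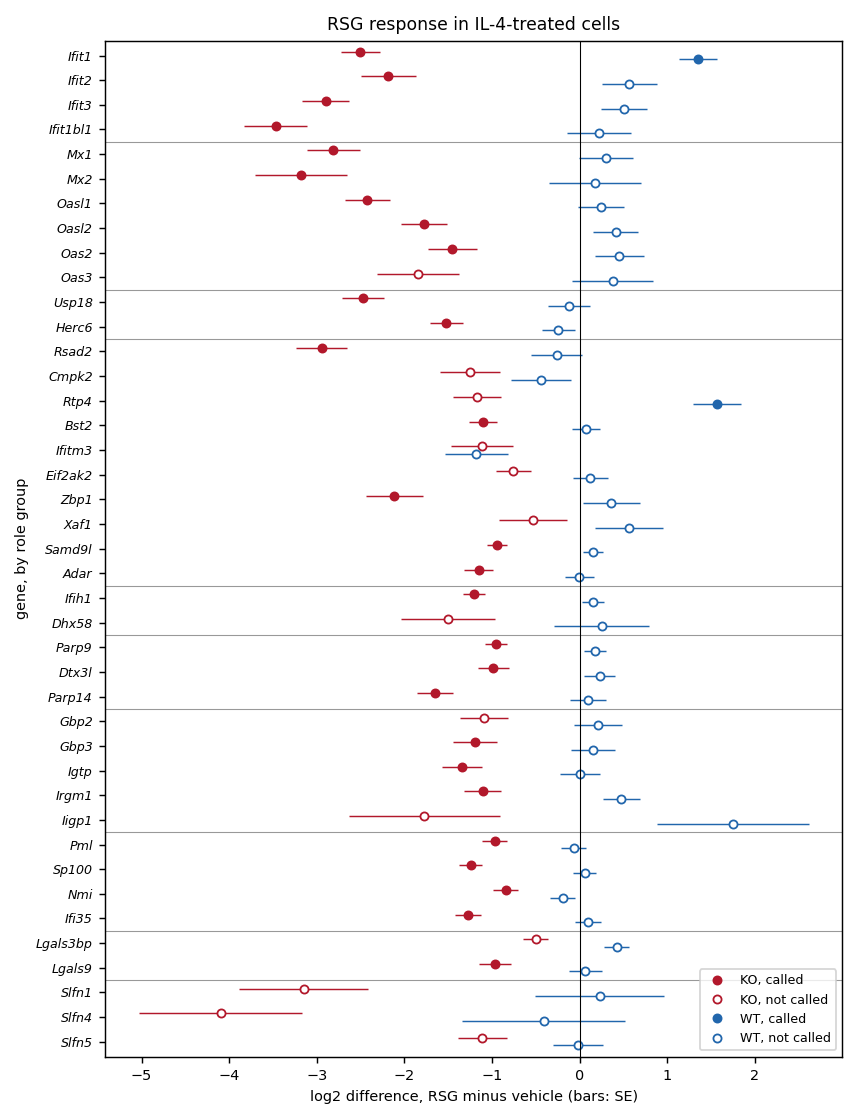
Log2 difference, IL-4 RSG minus IL-4 vehicle, with its SE for each of the 41 ISGs in KO (red) and WT (blue); filled points were called. All 41 KO points lie below 0, 28 of them called, while the WT points lie around 0 with Ifit1 and Rtp4 called above it.

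In IL-4-treated WT macrophage cultures RSG raised 2 of 41 ISGs and lowered none, where 0.331% of all probe sets were called higher and 0.357% lower. The median was 0.17. Ifit1 was at -1.56, -1.498 and -1.31 with RSG and at -2.96, -2.80 and -2.65 with vehicle (1.35 ± 0.22, adjusted p = 0.0041). Rtp4 was at -0.89, -0.65 and -1.29 with RSG and at -3.13, -2.48 and -1.92 with vehicle (1.57 ± 0.27, adjusted p = 0.0081). Both had no overlap and stayed below the WT control arrays. Neither call held throughout: both were lost without mouse 1 or 2 (highest adjusted p = 0.11 for Ifit1 and 0.19 for Rtp4), and the mean of all Rtp4 probe sets gave 0.55 (adjusted p = 0.79). The further Rtp4 probe set went the other way, with a mean of -2.09 with RSG and -1.63 with vehicle, and its groups overlapped. On the 6 compared arrays by themselves limma called 0 ISGs, as did the methods' t-test.

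The other 39 genes did not pass. Ifit1bl1 was at -2.87, -2.65 and -3.68 with RSG and at -3.26, -4.06 and -2.54 with vehicle (0.22 ± 0.36, adjusted p = 0.95). Mx1 was at -1.89, -1.19 and -1.63 with RSG and at -2.01, -1.72 and -1.88 with vehicle (0.30 ± 0.30, adjusted p = 0.88). Usp18 was at 1.61, 1.56 and 1.38 with RSG and at 1.77, 1.72 and 1.43 with vehicle (-0.12 ± 0.24, adjusted p = 0.96). In all 3 the groups overlapped. Iigp1 was at -1.01, 0.27 and 0.10 with RSG and at -4.74, -0.996 and -0.16 with vehicle (1.75 ± 0.87, adjusted p = 0.59), with mouse 1 far below the others under vehicle. On the further Iigp1 probe set that vehicle array of mouse 1 was at -1.64.

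Tested directly, the RSG response with IL-4 was lower in KO than in WT for 23 of 41 ISGs and higher for none, where 0.258% of all probe sets were called lower, and the median difference was -1.37. The 23 were 16 of 22 antiviral effectors, 1 of 5 GTPases (Irgm1, -1.58 ± 0.30) and 6 of 14 others. The widest of these were Ifit1 (-3.85 ± 0.31), Ifit1bl1 (-3.69 ± 0.51), Ifit3 (-3.41 ± 0.38) and Mx1 (-3.11 ± 0.43). Without mouse 1, 2, 5 or 6 the count was 10, 6, 5 or 6, after quantile normalization 8, and in a fit without the control cultures 11. Oas2, Herc6 and Dtx3l were lost with the mouse as a block (adjusted p = 0.12, 0.11 and 0.097). Without the KO control RSG array of mouse 6, Herc6 and Adar were lost (adjusted p = 0.058 and 0.056) and Lgals3bp was called (adjusted p = 0.046). Without both arrays high in stromal markers, Oas2, Herc6, Bst2 and Adar were lost (adjusted p = 0.064, 0.081, 0.05001 and 0.079). In every leave-out setting 4 calls were kept, those of Ifit1, Ifit3, Ifit1bl1 and Ifih1.

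Without IL-4, RSG gave no call. In limma 0 of 41 ISGs were called in KO control cultures, where 0.138% of all probe sets were called in either direction, and 4 of 41 had an unadjusted p under 0.05, as did 8.01% of all probe sets. In WT control cultures 0 of 41 were called, with 0.118% of all probe sets, and 3 of 41 had an unadjusted p under 0.05, as did 7.56% of all probe sets. The methods' t-test called 0 in both after adjustment. The exception on leaving out an array was Ifitm3. It was at -1.59, -1.500 and 0.11 with RSG and at 0.054, 0.14 and 0.26 with vehicle in KO control cultures (-1.15 ± 0.36, adjusted p = 0.32), where the RSG array of mouse 6, high in stromal markers, stood apart. In WT control cultures it was at -1.20, -1.78 and -0.79 with RSG and at 0.47, -0.056 and 0.24 with vehicle (-1.47 ± 0.36, adjusted p = 0.15), without overlap. When that array of mouse 6 was left out the difference was -1.70 in KO (adjusted p = 0.023), -1.47 in WT control cultures (adjusted p = 0.014) and -1.18 in WT IL-4 cultures (adjusted p = 0.029), and all 3 were called. With IL-4 in WT it was at -3.62, -3.58 and -3.48 with RSG and at -2.15, -3.01 and -1.99 with vehicle, without overlap. In IL-4-treated cultures its RSG difference was nearly the same in both genotypes, with a gap of 0.064 ± 0.51.

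The wider interferon pathway was measured by 56 genes. Of 10 interferon ligand genes 2 rose with IL-4 in KO without RSG, where 4.25% of all probe sets were called higher. Ifng, the gene of interferon-gamma, was at 2.88, 2.47 and 2.83 on KO IL-4 vehicle arrays and at -3.21, -2.93 and -1.07 on KO control vehicle arrays (5.13 ± 0.97, adjusted p = 0.0012). Ifna4 rose by 2.22 ± 0.73 (adjusted p = 0.049), and Ifnb1, the interferon-beta gene, did not pass (0.97 ± 0.38, adjusted p = 0.10). In WT no ligand gene was called, and Ifng was at -2.12, 0.61 and 1.99 with IL-4 and at -1.10, -2.90 and -0.20 without (1.56 ± 0.97, adjusted p = 0.34).

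In IL-4-treated KO cultures Ifng did not pass for RSG, at 2.52, 2.87 and 2.48 with RSG and at 2.88, 2.47 and 2.83 with vehicle (-0.11 ± 0.97, adjusted p = 0.99). The Ifng groups overlapped. Ifnb1 was at -0.43, 0.0025 and -0.77 with RSG and at 0.32, 1.05 and 0.61 with vehicle (-1.06 ± 0.38, adjusted p = 0.36), without overlap but also without a call. None of the 10 ligand genes and none of 15 genes of receptors, kinases and inhibitors was called in this comparison. There 56 of all 45037 probe sets were called higher and 176 lower.

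Of 9 STAT and IRF genes 4 rose with IL-4 in KO and 3 fell with RSG in IL-4-treated KO cultures. Of all probe sets 4.25% were called higher in the first comparison and 0.391% lower in the second. Irf7, the factor that amplifies type I interferon production, was at 2.07, 1.45 and 1.65 on KO IL-4 RSG arrays, 3.65, 3.93 and 4.05 on KO IL-4 vehicle arrays and -0.34, 0.025 and -0.026 on KO control vehicle arrays. It rose by 3.99 ± 0.33 with IL-4 and fell by 2.16 ± 0.33 with RSG (adjusted p = 0.0023). In WT Irf7 fell by 1.84 ± 0.33 with IL-4. Stat2, a subunit of the ISRE-binding complex, rose by 1.93 ± 0.28 with IL-4 in KO and fell by 1.63 ± 0.28 with RSG (adjusted p = 0.0076). Irf9, the DNA-binding subunit of that complex, rose by 0.79 ± 0.13 and fell by 0.65 ± 0.13 (adjusted p = 0.028). Irf1, a classical target of interferon-gamma, rose by 1.59 ± 0.24 with IL-4 in KO. In IL-4-treated KO cultures Irf1 was at 0.22, 0.20 and 0.17 with RSG and 0.44, 0.76 and 0.93 with vehicle (-0.52 ± 0.24, adjusted p = 0.57), without overlap but also without a call. Irf4, a factor of alternative activation, rose by 3.73 ± 0.77 in WT and was lower in KO than in WT with IL-4 and vehicle (-2.82 ± 0.77).

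Of 7 interferon-induced chemokine genes 5 rose in KO and 4 fell in WT with IL-4. Of all probe sets 4.25% were called higher in KO and 5.94% lower in WT. Cxcl10 rose by 3.63 ± 0.37 in KO and fell by 3.70 ± 0.37 in WT, and Cxcl9 rose by 4.59 ± 1.17 in KO and fell by 4.55 ± 1.17 in WT. Both recruit T cells through CXCR3. With RSG in IL-4-treated KO cultures Cxcl10 fell by 1.87 ± 0.37 (adjusted p = 0.021). Cxcl9 was at 4.41, 3.53 and 3.38 with RSG and at 3.31, 3.62 and 4.64 with vehicle (-0.083 ± 1.17, adjusted p = 0.99), and its groups overlapped. Ccl5, another chemoattractant of T cells, was higher in KO than in WT with IL-4 and vehicle by 5.32 ± 0.49.

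Of 15 sensing and adaptor genes 4 rose and 2 fell with IL-4 in KO. In that comparison 4.25% of all probe sets were called higher and 3271 of the 45037 lower. With RSG in IL-4-treated KO cultures 4 fell, where 0.391% of all probe sets were called lower. These were the RNA sensor genes Ddx58, which encodes RIG-I (-1.32 ± 0.15), and Tlr3 (-1.53 ± 0.32), and the DNA sensor genes Cgas (-0.70 ± 0.15) and Ifi204 (-1.12 ± 0.19). Ikbke, an IRF-activating kinase gene, was higher in KO than in WT with IL-4 and vehicle by 1.49 ± 0.17. Of the 15 receptors, kinases and inhibitors 4 rose and 1 fell with IL-4 in KO, against the same shares of all probe sets, 4.25% higher and 3271 of 45037 lower. Socs1, an inhibitor of JAK kinases, rose in both genotypes, by 3.01 ± 0.73 in KO and 3.58 ± 0.73 in WT. Socs3, the inhibitor best known from IL-6 signalling, rose by 1.55 ± 0.51 in KO and fell by 4.11 ± 0.51 in WT. With IL-4 and vehicle the lambda receptor gene Ifnlr1 was higher in KO than in WT (1.67 ± 0.57) and Ifngr2, a subunit of the interferon-gamma receptor, was lower (-1.13 ± 0.15).

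**Figure D5:**
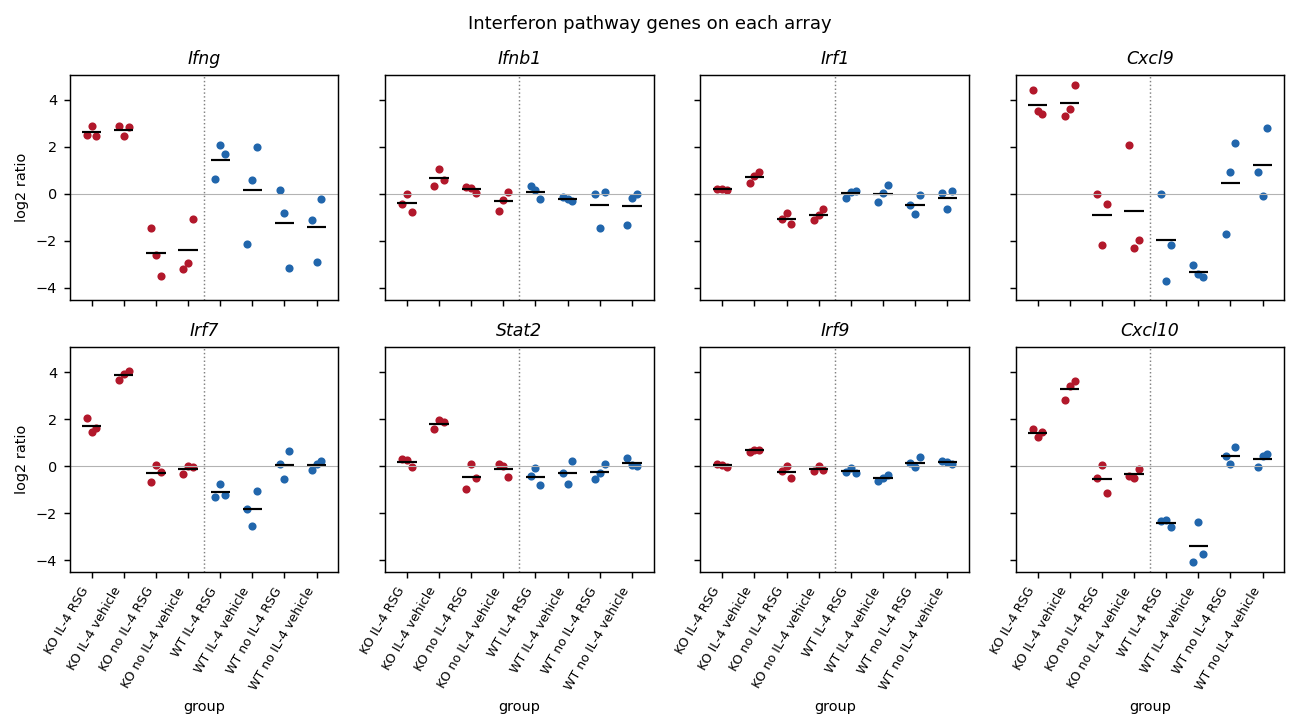
Log2 ratio of 8 interferon pathway genes on each array (points; KO red, WT blue; bars are means of 3 arrays) over the 8 groups. On KO arrays with IL-4, Ifng and Cxcl9 overlap between RSG and vehicle, while Irf7, Stat2, Irf9 and Cxcl10 are lower with RSG, by 2.16, 1.63, 0.65 and 1.87. Irf1 and Ifnb1 are also lower with RSG on these arrays, without overlap, but neither was called.

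The 27 further probe sets mostly followed the one that stood for the gene. For the IL-4 response in KO 22 of 27 had the same sign and call, for that in WT 16, and for the RSG response in IL-4-treated KO cultures 15; in no comparison were 2 probe sets of a gene called in opposite directions. Xaf1, Cmpk2 and Dhx58 each had a further probe set that was called in both KO responses: with IL-4 in KO it gave 2.80 for Xaf1, 3.24 for Cmpk2 and 2.19 for Dhx58, and with RSG in IL-4-treated KO cultures -1.64, -2.32 and -1.45. The further Cmpk2 probe set also fell by 1.89 with IL-4 in WT, and that of Sp100 by 1.18. Slfn1 had a further probe set that gave -0.22 with IL-4 in KO and 1.17 with RSG in IL-4-treated KO cultures, neither of them called. Averaging all probe sets of a gene called 33 ISGs lower with RSG in IL-4-treated KO cultures. Whether probes of close relatives, such as Ifit1 and Ifit1bl1 or Mx1 and Mx2, share signal was not tested.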

How the data were processed

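RNA of 24 BMDM cultures, grouped by the labels, was hybridised to 1 array each. The authors deposited a linear ratio per probe set: GC-RMA signals were divided by the array's 50th percentile and then by the probe set's median, per the labels and the study's methods. The division by vehicle control that the methods also name is not seen in the values, in which 38889 of 45037 probe sets have a median of 1. Ratios ran from 0.01 to 1949.689. The 64 control probe sets were left out. The values are not counts, and precision is limited by 3 arrays per group.

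For the tests limma 3.58.1 (R 4.3.3) was fitted to the log2 ratio with lmFit and moderated with eBayes without a trend (8 groups, 15 comparisons, 16 residual and 1.35 prior degrees of freedom) with Benjamini-Hochberg adjustment over all 45037 probe sets. Tables and figures used Python 3.11.15, pandas 2.3.3, numpy 2.4.6 and matplotlib 3.10.9, and the fit was tested on simulated data. One probe set stood for a gene: identifiers ending in _at or _a_at came before _s_at and _x_at, and the lowest was taken. Named with values were the members with the widest and the narrowest genotype gap of each role group, all GTPases, members that ran against their group and members called in an RSG response. Their arrays that are not given in the text are drawn in the heat map. Pathway genes were named by the widest gaps of their list, with Ifnb1, Ifng, Irf9 and Irf1 added. The members and lists were chosen with earlier results of these data known.

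The mouse number in the labels marks the animal whose marrow gave 4 cultures. Deviations from group means of the 36 same-mouse pairs of arrays had a mean correlation of 0.011 (-0.023 to 0.046), with 0 pairs above 0.1. In the alternative with the mouse as a block, it was a fixed factor for the IL-4 and RSG responses and their genotype differences. For KO minus WT within a condition it was a random block with a correlation of 0.011. Alternatives changed the variance trend, the normalization, the offset on the ratio, the choice of probe set, the arrays fitted and the test.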

Additional observations from a re-analysis of the deposited data

Results flagged for a closer look

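The following results stood out because the responses of the KO and WT cultures to the same treatment differed in a direct test within limma. The IL-4 response differed between genotypes for 39 of 41 ISGs with vehicle and for 25 with RSG, each time higher in KO. The RSG response with IL-4 differed for 23 of 41, each time lower in KO.

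Listed here are the called members among those with the widest genotype gap of their role group with IL-4 and vehicle. For them the RSG response with IL-4 was lower in KO than in WT on the log2 scale. The difference was -3.69 for Ifit1bl1, -3.11 for Mx1, -2.74 for Rtp4, -2.35 for Usp18, -1.75 for Parp14, -1.36 for Ifih1 and -1.30 for Sp100. Leaving out 1 mouse or 1 array ended the call in at least 1 setting for each of them except Ifit1bl1 and Ifih1. For Rtp4 the mean of all its probe sets gave -2.05 (adjusted p = 0.19), which is no call.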

How the results depend on the processing

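Of the 272 calls of members over all comparisons, 166 held under every alternative run. Over 11059 recomputed values 10436 kept the call, 623 lost it with the direction kept and 0 reversed.

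Called ISGs in either direction are given here for the settings that moved a count by over 1.5 times. For IL-4 in WT with vehicle, 14 in all arrays, the compared arrays by themselves gave 9 and the methods' t-test 7. For IL-4 in KO with RSG, 25 in all arrays, they gave 14 and 9, and for IL-4 in WT with RSG, 13 in all arrays, the methods' t-test gave 8. For RSG in KO with IL-4, 28 in all arrays, both gave 0, and leaving out 1 mouse or array gave 13 to 32 (13 without mouse 5, 16 without mouse 6). For RSG in WT with IL-4, 2 in all arrays, both gave 0, the mean of all probe sets gave 1 and leaving out 1 mouse or array gave 0 to 3 (0 without mouse 1 or 2). For RSG in KO and in WT control cultures, 0 in all arrays, leaving out both arrays high in stromal markers gave 1 each, and leaving out 1 mouse or array gave 0 to 1, the gene being Ifitm3. For the genotype difference of the RSG response, 23 in all arrays, quantile normalization gave 8, the compared arrays by themselves 11 and leaving out 1 mouse or array 5 to 26. The smaller fits hold fewer arrays, and no other cause of these changes was tested.

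With the mouse as a block, 40 ISGs were called for IL-4 in KO with vehicle, 15 in WT, 24 and 14 with RSG, 26 for RSG in KO with IL-4, 2 in WT, and 39, 27 and 21 for the genotype differences. Beside the calls named above, it added Gbp2 for IL-4 in WT with RSG (adjusted p = 0.043), Eif2ak2 (0.027) and Iigp1 (0.042) in the genotype difference of the IL-4 response with RSG, and Lgals9 (0.050) in that of the RSG response. Quantile normalization moved the median of all probe sets by 0.183 and centring each array by 0.215 for KO minus WT with IL-4 and vehicle, and no called ISG changed direction under either.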
